A study of Danio rerio with 12 samples.

Results

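The 81 genes described here carry the names of proteins of the cytosolic ribosome or of paralogs of these. They are all the genes, of 14581 in the deposited expression table, whose symbol begins with rpl or rps (with or without a p) followed by a digit, or is rpsa, leaving out the kinases named rps6k. Of them 43 belong to the large subunit, 4 to its lateral stalk (rplp0, rplp1, rplp2 and rplp2l) and 34 to the small subunit. They cover 74 of the 79 subunit names looked up. Among the names with no row were rpl29, rpl37a, rpl41 and rps30, and the last of these can be read under another symbol outside the rule, faub. The measurements come from livers of adult wild-type zebrafish (Danio rerio), males and females, that received β-estradiol or its solvent DMSO daily for 6 weeks starting 3 months after fertilization. Each of the 4 groups (each sex with DMSO or with estradiol) has 3 RNA-seq libraries. Per the labels' protocols, fish lived in separate tanks so that their food intake could be controlled. In its title the study names GPER1, a membrane receptor for estrogen, together with PI3K and mTOR and with liver growth that differs by sex. Whether each library is a different fish is not stated, so p-values reflect the spread between these libraries, which may be technical. DMSO libraries are numbered 7 to 12 and estradiol libraries 19 to 24, so anything that goes with this numbering cannot be told apart from the treatment.

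Cytosolic ribosomes are built from ribosomal RNA and one copy each of most ribosomal proteins, with the acidic stalk proteins present in several copies. The small subunit decodes the mRNA, the large subunit forms the peptide bond, and the stalk recruits and stimulates the elongation factors. In vertebrates the mRNAs of these proteins begin with a terminal oligopyrimidine (TOP) tract, through which mTOR signalling controls their translation, and their genes are known for high and coordinated expression in growing and secretory tissues such as liver.

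Before the results, the tissue and the labels were checked. Fragment depth is unknown, because the table holds FPKM (fragments normalised to transcript length and sequencing depth) and no counts. The mean log2 level over 23 hepatocyte markers was from 8.1 to 10.95 in the 12 libraries. Of these markers 19 were at 1 FPKM or more in every library, while tfa was listed at 0 in 6 libraries, apoa2 and apoa1b in 3 each, and rbp4l did not exceed 0.532 FPKM. The estrogen receptor gene esr1 ran from 0.785 to 1.35 FPKM in male DMSO and from 4.4 to 36.4 in male estradiol, and in females from 36.99 to 88.5 in DMSO and from 10.3 to 13.3 in estradiol. Transcripts of other organs were uneven. The mean log2 level of 39 oocyte and germ cell genes was 6.07, 1.58 and 5.06 in male estradiol replicates 1 to 3 and 6.0, 0.658 and 4.22 in female estradiol replicates 1 to 3. In male DMSO it was 0.388 to 0.532 and in female DMSO 0.962 to 3.14. Of that list figla and h1m were at 0 in all 12 libraries. Replicates 1 and 3 of both estradiol groups are called oocyte-rich below, and results that rest on them are given with and without them. Exocrine pancreas genes (16) averaged 6.55 to 7.07 in male DMSO, 5.51 to 7.56 in female DMSO and 0.998 to 3.95 in the estradiol libraries. Intestine genes (18) averaged 5.67 and 5.61 in female DMSO replicates 1 and 2 and 1.06 to 2.42 elsewhere. The part of pancreas transcripts in the results was not tested.

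Ribosomal protein transcripts were among the most abundant in every liver library. Of the 81 genes 66 were among the 100 genes with the highest mean FPKM of the table, 77 had a mean between 500 and 10000 FPKM, and 80 had at least 1 FPKM in all 12 libraries. The exception was rps8b, and none was listed at 0 anywhere, so all 81 were among the 9190 genes tested. The highest mean was that of rplp1, an acidic protein of the stalk, with 11604 FPKM (rank 4 of all genes). Then came 4 genes of the small subunit, namely rps29 with 9429.8 FPKM, rps20 with 7617, rps12 with 6996 and rps2, whose protein sits near the mRNA entry channel, with 6084. They were followed by rplp0, the scaffold of the stalk, with 5845 FPKM.

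rps8b had a mean of 3.73 FPKM against 2785 for its paralog rps8a, and rpl37 had 13.8 FPKM although the median of the 81 means was 3473. rpl7l1, whose yeast counterpart is an assembly factor and not a subunit of the finished ribosome, had 62.4 FPKM. The next in order were rpl31 with 881 and rpl5b with 1000.3. No gene lay between rpl7l1 and rpl31, so 78 of the 81 formed one band and 3 lay apart from it, as the plot of gene levels by library shows. For rpl5a and rpl5b, rps8a and rps8b, rps26 and rps26l, rps27.1 and rps27.2, and rplp2 and rplp2l, reads of similar sequence could be split between the paralogs, so their individual levels are uncertain.

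**Figure D1:**
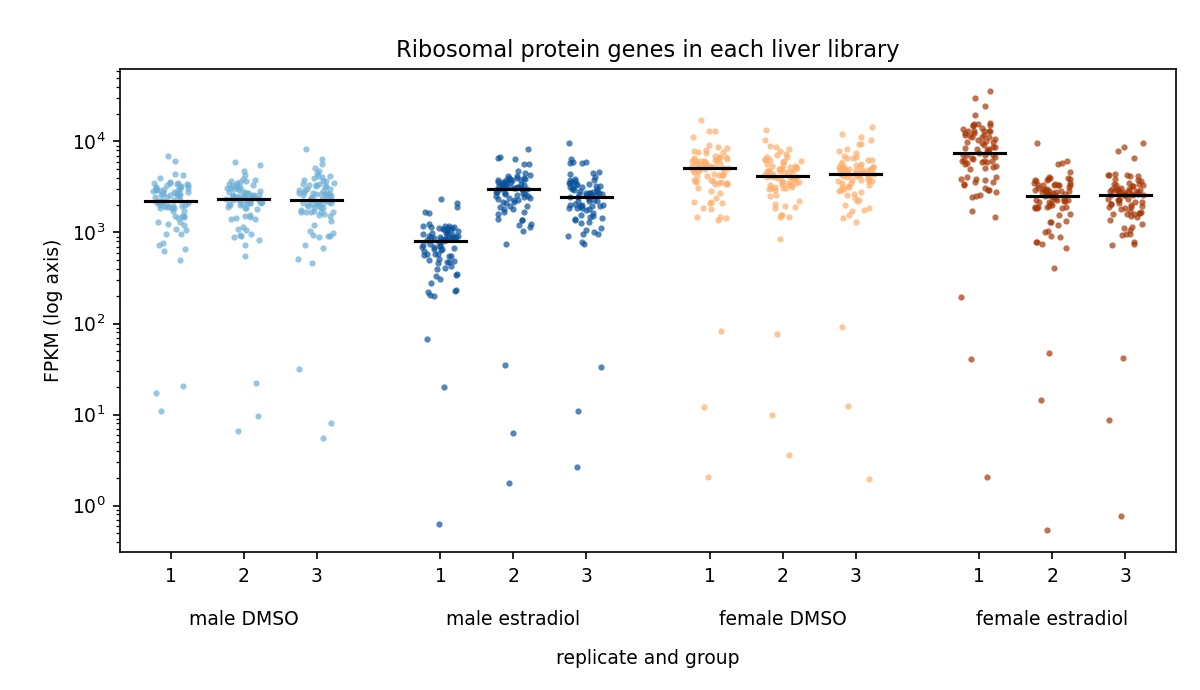
Level of the 81 ribosomal protein genes in each library, in FPKM on a log axis; each point is a gene and each black line the median of its library. The lines of the 3 female DMSO libraries lie at 4139.7 FPKM or more, male estradiol replicate 1 has the lowest line (803) and female estradiol replicate 1 the highest (7399).

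The median of the 81 genes was 2244, 2353 and 2281 FPKM in male DMSO, 803, 3033 and 2473 in male estradiol, 5133, 4139.7 and 4426 in female DMSO and 7399, 2547 and 2564 in female estradiol (replicates 1 to 3 in each). The DMSO groups were narrow and did not overlap, females being higher. Both estradiol groups were wide, each because of its replicate 1, which was the lowest of all libraries in males and the highest in females. The range over libraries was 9.21-fold. Of the 81 genes 78 had their lowest value in male estradiol replicate 1 and 70 their highest in female estradiol replicate 1. Both of these libraries were oocyte-rich, and they lay at opposite ends of the ribosomal protein range. Their FPKM sums over all genes were also the lowest (304905 in males) and the highest (1217095 in females) of all libraries. The other libraries had sums from 485549 to 906620. The part of the whole-library sum in this range was not tested, and genes outside the family were not counted in this way.

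As a share of the FPKM sum of the library, ribosomal protein transcripts took 25.7, 26.2 and 30.4% in male DMSO, 20.9, 30.8 and 38.1% in male estradiol, 45.7, 44.7 and 42.5% in female DMSO and 58.0, 43.1 and 42.0% in female estradiol. The 6 female libraries all lay above the 6 male libraries, under either treatment. Group means were 27.4 ± 2.57% (SD, n = 3) in male DMSO, 30.0 ± 8.61% in male estradiol, 44.3 ± 1.61% in female DMSO and 47.7 ± 8.91% in female estradiol. These shares are descriptions and were not tested. A share also moves with the other genes of the library. In female DMSO the 81 genes summed to 381199 ± 30724 FPKM and all other genes to 479402 ± 36566, against 193128 ± 6481 and 513615 ± 46906 in male DMSO. In estradiol replicates 2 and 3 the 81 genes summed to 209207 and 213823 FPKM in females and to 242304 and 214083 in males. All other genes summed to 276342 and 294774 in those female libraries and to 543899 and 347718 in the male ones. In estradiol replicate 1 the 81 genes summed to 705506.5 in females and 63860 in males, and all other genes to 511588.5 and 241045. The transcript with the highest mean in male DMSO, fabp10a, which encodes the liver fatty acid binding protein, ran from 68625 to 82284 FPKM there, from 32209.5 to 50080.0 in female DMSO and from 6559.8 to 15596 in the estradiol libraries. The share was also taken with the 10 most abundant genes of the table left out. As 4 of them are ribosomal protein genes, these were left out of both the family and the sum. The highest male share of the remaining family was 42.4% (estradiol replicate 3) and the lowest female share 44.4% (estradiol replicate 3). The sexes thus stayed apart by a smaller margin.

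**Figure D2:**
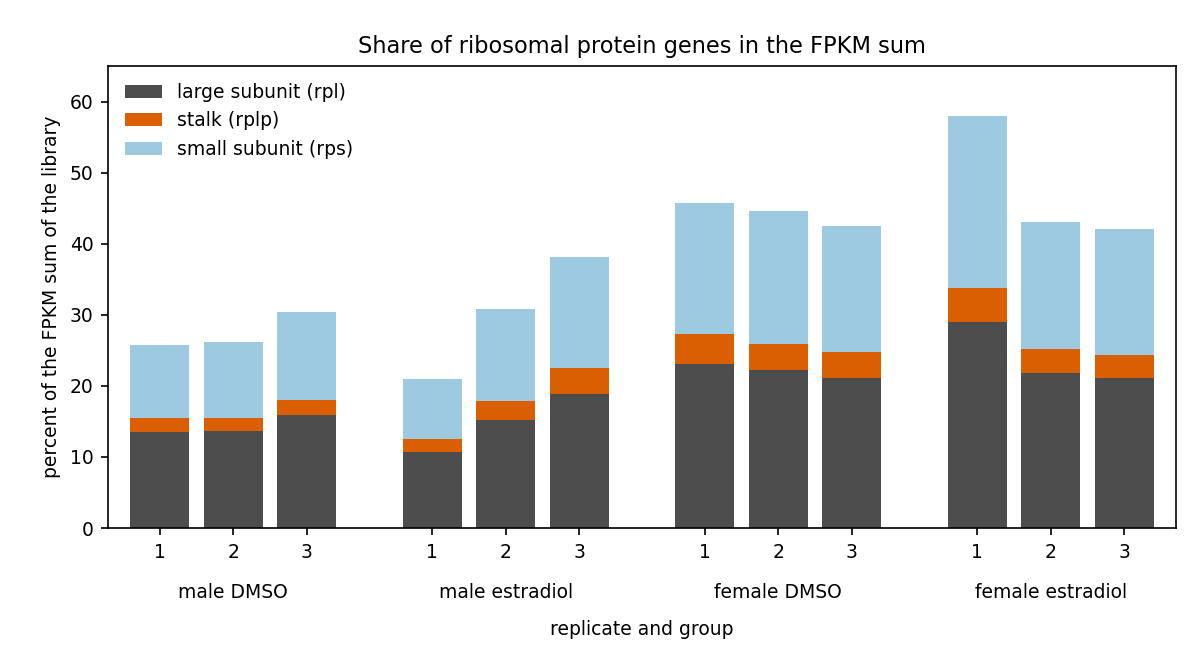
Percent of the FPKM sum of each library taken by genes of the large subunit (bottom, grey), the stalk (middle, orange) and the small subunit (top, light blue). The bars of the 6 female libraries reach 42.0% or more and those of the 6 male libraries 38.1% or less.

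Large-subunit genes took 13.4 to 15.9% of the sum in DMSO males and 21.2 to 23.1% in DMSO females. Small-subunit genes took 10.3 to 12.3% and 17.8 to 18.8%. The 4 stalk genes took 1.81 to 2.16% and 3.58 to 4.17%. All 3 classes were thus higher in females under DMSO with no overlap. rplp1 by itself averaged 0.917% of the sum in male DMSO, 1.16% in male estradiol, 1.73% in female DMSO and 2.27% in female estradiol.

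The first comparison was of females with males under DMSO, which asks whether the livers of the sexes differ without added hormone. Ribosomal protein transcripts had higher values in females, with a median log2 change of 0.97 on the log2(FPKM + 1) scale (1.95-fold), against 0.048 over all 9190 genes tested. The difference stayed above 0 with the libraries rescaled to an equal FPKM sum without the 10 most abundant genes and any vtg genes (0.72, against -0.11 over all genes), with median-of-ratios scaling (0.87, against -0.011) and with quantile normalization (0.40, against -0.053). The vtg genes are those whose symbol begins with vtg and a digit. The log2 change was above 0 for 80 of the 81 genes, against 53.1% of all genes. In 76 of 81 every female DMSO library lay above every male DMSO library, where 18.6% of all genes did so. The exceptions were rpl26, rpl27a, rpl37 and rplp2, whose groups overlapped, and rps8b, which was lower in every female than in every male library, as 12.2% of all genes were. In RNA from whole liver, fewer cells of a type and less RNA per cell cannot be told apart. Intestine transcripts were high in female DMSO replicates 1 and 2, and without those libraries, which leaves female DMSO replicate 3 alone, the median log2 change was 0.99. Oocyte transcripts averaged 0.962 to 3.14 in female DMSO and 0.388 to 0.532 in male DMSO, and their part in the result was not tested.

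With limma fitted to all 12 libraries and an adjusted p threshold of 0.05, none of the 81 passed in this comparison, where 0.555% of all genes did. At an unadjusted p under 0.05 there were 8, namely rps8b on the lower side and rpl12, rpl15, rplp2l, rps20, rps12, rpl22l1 and rpl7l1 on the higher. The share of all genes at this unadjusted threshold was not counted, here or beside the unadjusted counts given below. This fit takes its error from all 4 groups, including the wide estradiol groups. With only the 6 DMSO libraries in the fit, 64 genes rose and 1, rps8b, fell (against 5.58% and 3.24% of all genes). With all libraries except the 4 oocyte-rich ones it was 67 and 1 (against 7.14% and 4.11%), and without replicate 1 of both estradiol groups 59 and 1 (against 3.59% and 2.28%). The fold changes are the same in these fits, and the calls depend on which libraries supply the error. Leaving out the 4 oocyte-rich libraries leaves 1 library in each estradiol group, so that the error comes from the 6 DMSO libraries. The counts of that fit are therefore no further support beside those of the DMSO libraries alone. The libraries of replicate 1 were picked after seeing the data, for the extreme levels of these same genes.

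Among the large changes was rps12, a protein of the small-subunit head. It measured 3309, 3457 and 4138 FPKM in the male DMSO libraries, 1682, 6815 and 6441 in male estradiol, 9035, 10295 and 10418 in female DMSO and 15639, 6100.1 and 6624 in female estradiol. The 3 male DMSO libraries were the lowest apart from male estradiol replicate 1, and the female DMSO libraries lay well above them. Its female against male log2 change under DMSO was 1.45, with SE 0.59 and limma adjusted p = 0.368 over all libraries, and SE 0.16 and adjusted p = 0.00787 over the DMSO libraries alone. The adjusted p ran from 0.00205 to 1.0 over the 25 alternative settings.

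rps20, another head protein, measured 3947, 3126 and 3782 FPKM in the male DMSO libraries, 1646, 5699 and 5944 in male estradiol, 11049, 8599 and 9395 in female DMSO and 24688, 5593 and 7937 in female estradiol. Its DMSO groups did not overlap, and the single highest value was that of female estradiol replicate 1. The log2 change was 1.42, with SE 0.64 over all libraries (adjusted p = 0.415) and SE 0.18 over the DMSO libraries (adjusted p = 0.0108, limma). rpsa, a small-subunit protein also known as the laminin receptor, changed by 1.39 on the log2 scale (adjusted p = 0.466 over all libraries and 0.0114 over DMSO libraries, limma). The 2 largest changes were of low or intermediate genes, namely rpl7l1 with 1.74 and rpl22l1, the paralog of rpl22, with 1.60. The smallest above 0 were rpl37 with 0.36 and rplp2 with 0.46. By class the median log2 change was 0.87 for the large subunit, 1.01 for the small subunit and 1.27 for the 4 stalk genes.

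rps8b ran against the others. It measured 10.98, 9.67 and 8.02 FPKM in the male DMSO libraries, 0.622, 1.75 and 2.67 in male estradiol, 2.08, 3.63 and 1.96 in female DMSO and 2.06, 0.54 and 0.77 in female estradiol. The 3 male DMSO libraries were far above the other 9, at levels that are low for this family. The female against male log2 change under DMSO was -1.59, which did not pass in the fit of all libraries (SE 0.40, adjusted p = 0.108) and passed with the DMSO libraries alone (adjusted p = 0.019, limma). Its adjusted p ran from 0.0124 to 1.0 over the 25 alternative settings.

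Estradiol was next compared with DMSO within males. Of the 81 genes 1 fell, rps8b (log2 change -2.05, SE 0.40, adjusted p = 0.0143, limma), where 3.79% of all genes passed and 2.91% fell. Each of the 3 male estradiol libraries lay below each of the 3 male DMSO libraries. The call did not survive the removal of male DMSO replicate 1 (adjusted p = 0.0838) or replicate 2 (adjusted p = 0.0662), with only the 6 male libraries in the fit, where 2.39% of all genes passed (adjusted p = 0.0521), or with libraries scaled to the family and the replicate block (adjusted p = 0.0801), and it held in 21 of 25 alternative settings. Its paralog rps8a stood at 1838, 1876 and 1917 FPKM in male DMSO and 689.5, 2641 and 1751 in male estradiol, and how the reads of the pair were split was not tested. The 16 exocrine pancreas genes, high in all male DMSO libraries, averaged 2.22 to 3.95 on the log2 scale in male estradiol, against 6.55 to 7.07, and their part in this result was not tested.

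For the other 80 genes no change passed. The median log2 change of the 81 was -0.41, against 0.21 over all genes, and 9 of the 81 were above 0, against 59.4%. The sign of this median rests on replicate 1 of the male estradiol group and on the scaling. Without that library it was 0.20, and without the 4 oocyte-rich libraries 0.34. It was 0.074 with sums equalised without the 10 most abundant genes and any vtg genes (against 0.60 over all genes), 0.12 with quantile normalization (against -0.052) and -0.63 with median-of-ratios scaling (against 0.056). There were 4 genes whose groups did not overlap: rpl7l1 was higher in all 3 estradiol libraries (18.5% of all genes were), and rpl19, rpl22 and rps8b were lower (11.4%). rpl19, a protein of the large subunit, measured 1862, 2206 and 1968 FPKM in male DMSO and 585, 1675 and 1282 in male estradiol. The gap between its groups was small, and the change did not pass (log2 change -0.90, SE 0.50, adjusted p = 0.27, limma). rpl22, an RNA-binding protein of the large subunit, measured 1868, 2094 and 2272 FPKM in male DMSO and 501, 1806 and 1531 in male estradiol (log2 change -0.89, SE 0.58, adjusted p = 0.338).

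rpl7l1 measured 20.9, 22.1 and 31.7 FPKM in the male DMSO libraries, 68.4, 35.1 and 33.2 in male estradiol, 83.9, 77.2 and 91.7 in female DMSO and 196, 47.0 and 42.1 in female estradiol. Male estradiol replicate 1, the library in which nearly every ribosomal protein gene was lowest, held the highest male value of rpl7l1, and female estradiol replicate 1 the highest of all. The log2 change in males was 0.79 (SE 0.54, adjusted p = 0.368, limma). The largest other changes were rpl37 with 0.34 and rpl22l1 with 0.26 on the higher side and rpl27a with -0.90 on the lower, none past the threshold. Without replicate 1 of both estradiol groups, a choice made after seeing the values, rps12 rose in males (log2 change 0.87, adjusted p = 0.0207) and rps8b still fell (-1.72, adjusted p = 0.0148), against 1.28% and 2.72% of all genes. Leaving out the 4 oocyte-rich libraries leaves 1 library in the male estradiol group. The calls of that fit assume that this library varies like the DMSO libraries, and they cannot show a change of the group. Without the 4 oocyte-rich libraries rps12 and rpsa rose and rps8b fell, against 5.18% and 3.32% of all genes.

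In females under estradiol none of the 81 genes passed, where 2.73% of all genes did, and 1 had an unadjusted p under 0.05, rplp0. The median log2 change was -0.31, against -0.079 over all genes. It was 0.027 with sums equalised without the 10 most abundant genes and any vtg genes (against 0.19 over all genes). It was 0.02 with quantile normalization (against 0.0095) and -0.17 with median-of-ratios scaling (against 0.020). For most genes female estradiol replicates 2 and 3 lay below the female DMSO libraries and replicate 1 above them. The groups overlapped in all but rps16, a small-subunit protein that reaches toward the decoding site. rps16 measured 3411, 3052 and 4181 FPKM in female DMSO and 2962, 1561 and 2075 in female estradiol, so each estradiol library was lower, as in 18.8% of all genes. No member was higher in every estradiol library, as 9.98% of all genes were. The largest log2 changes were those of rplp0 (-1.57), rpl5b (-0.79) and rps8b (-0.78) on the lower side and of rpl37 (0.57), rpl24 (0.25) and rplp2 (0.25) on the higher.

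The result in females rested on replicate 1. With replicate 1 of both estradiol groups left out, 48 of the 81 genes fell and none rose, where 5.54% and 1.45% of all genes did. The median log2 change was -0.87 (0.546-fold), against -0.19 over all genes. Both libraries were picked after seeing the data, as those with the lowest and the highest level of these same genes. The calls are therefore no independent support for a fall. Without the 4 oocyte-rich libraries, which leaves replicate 2 alone to stand for each estradiol group and assumes that it varies like the DMSO libraries, 15 fell (4.07% of all genes) and the median was -0.85. With replicate 1 of the female group alone left out, the median was the same -0.87, limma called none of the 81, and 5 had an unadjusted p under 0.05. Exocrine pancreas genes averaged 0.998 to 3.65 on the log2 scale in female estradiol and 5.51 to 7.56 in female DMSO, and their part in these values was not tested. Replicate 2, which held the lowest oocyte level of its group, and replicate 3, which was oocyte-rich, gave similar member medians of 2547 and 2564 FPKM. The part of oocyte transcripts in these medians was not tested.

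rps19, a small-subunit protein known for its mutations in Diamond-Blackfan anaemia, shows the pattern. It measured 2069, 2381 and 2442 FPKM in the male DMSO libraries, 651, 2989 and 3475 in male estradiol, 4605, 5021 and 4887 in female DMSO and 11261, 2621 and 2892 in female estradiol. Female estradiol replicates 2 and 3 lay within the range of the male libraries and below all female DMSO libraries, and replicate 1 lay above every other library. The log2 change by estradiol in females was -0.13 with all libraries (SE 0.69, adjusted p = 0.933) and -0.81 without replicate 1 of both estradiol groups (SE 0.17, adjusted p = 0.0297, limma). The second fit leaves out the libraries with the lowest and the highest value of this gene, a choice made after seeing the values.

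Females against males under estradiol asks whether the sexes still differ when both receive the hormone. None of the 81 genes passed, where 0.109% of all genes did, and 2, rpl11 and rps20, had an unadjusted p under 0.05. The median log2 change was 1.07, against -0.27 over all genes, and 79 of 81 were above 0, against 32.8%. The sign of this median rested on the 2 extreme replicates 1. Without both it was -0.11, against -0.29 over all genes. Without all 4 oocyte-rich libraries, which leaves 1 library in each estradiol group, it was -0.27, against -0.41. With all libraries it was 0.67 with sums equalised without the 10 most abundant genes and any vtg genes (against -0.58 over all genes). It was 1.33 with median-of-ratios scaling (against -0.083) and 0.36 with quantile normalization (against -0.036). The groups did not overlap in 1 gene, rps23, a protein of the decoding centre, which was higher in females (2.62% of all genes were). It measured 964, 3308 and 3374 FPKM in male estradiol and 14126, 3690.2 and 3489.6 in female estradiol, so that the nearest libraries of the sexes lay close together. The largest log2 changes were those of rps20 (1.43), rps29 (1.41) and rpl27 (1.40), and the lowest those of rps8b (-0.33), rplp0 (-0.28) and rpl9 (0.59), none past the threshold.

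The interaction, the change by estradiol in females minus that in males, passed for none of the 81 genes, where 0.261% of all genes passed, and 1, rps8b, had an unadjusted p under 0.05. Its median was 0.069, against -0.28 over all genes. Without replicate 1 of both estradiol groups, a choice made after seeing the values, the median was -1.09, against -0.32 over all genes. There 5 genes passed on the lower side (0.251% of all genes), among them rpl15, rplp0, rps12 and rps15a. Without the 4 oocyte-rich libraries the median was -1.17 and 21 passed (5.07%). On the latter libraries the median change by estradiol was 0.34 in males and -0.85 in females. They hold 1 library in each estradiol group, and the calls assume that it varies like the DMSO libraries. With all libraries the largest interactions were those of rps8b (1.27), rplp2 (0.72) and rps29 (0.64) above 0 and of rplp0 (-1.62), rpl7l1 (-0.99) and rpl12 (-0.66) below it.

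Within each library the 81 genes kept a nearly fixed profile. Each gene was set against the median of the 81 in its own library, which removes the level of the library. The SD of this log2 deviation over 12 libraries had a median of 0.24 and was under 0.3 for 65 of the 81, while the library medians themselves had an SD of 0.80. The steadiest was rpl8, a protein next to the peptidyl transferase centre, with 0.10, followed by rpl36 with 0.12, rpl36a with 0.13, rps3, which lines the mRNA entry channel, with 0.13, and rpl10, which joins the large subunit last in yeast and in human cells, with 0.14. The least steady were rps8b with 1.57, rpl37 with 1.02 and rpl7l1 with 0.85, the 3 genes of low level. Next came rplp0 with 0.57, then rpl27a with 0.50, rpl24 with 0.45 and rps14, whose human gene lies in a region deleted in a myelodysplastic syndrome, with 0.45.

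**Figure D3:**
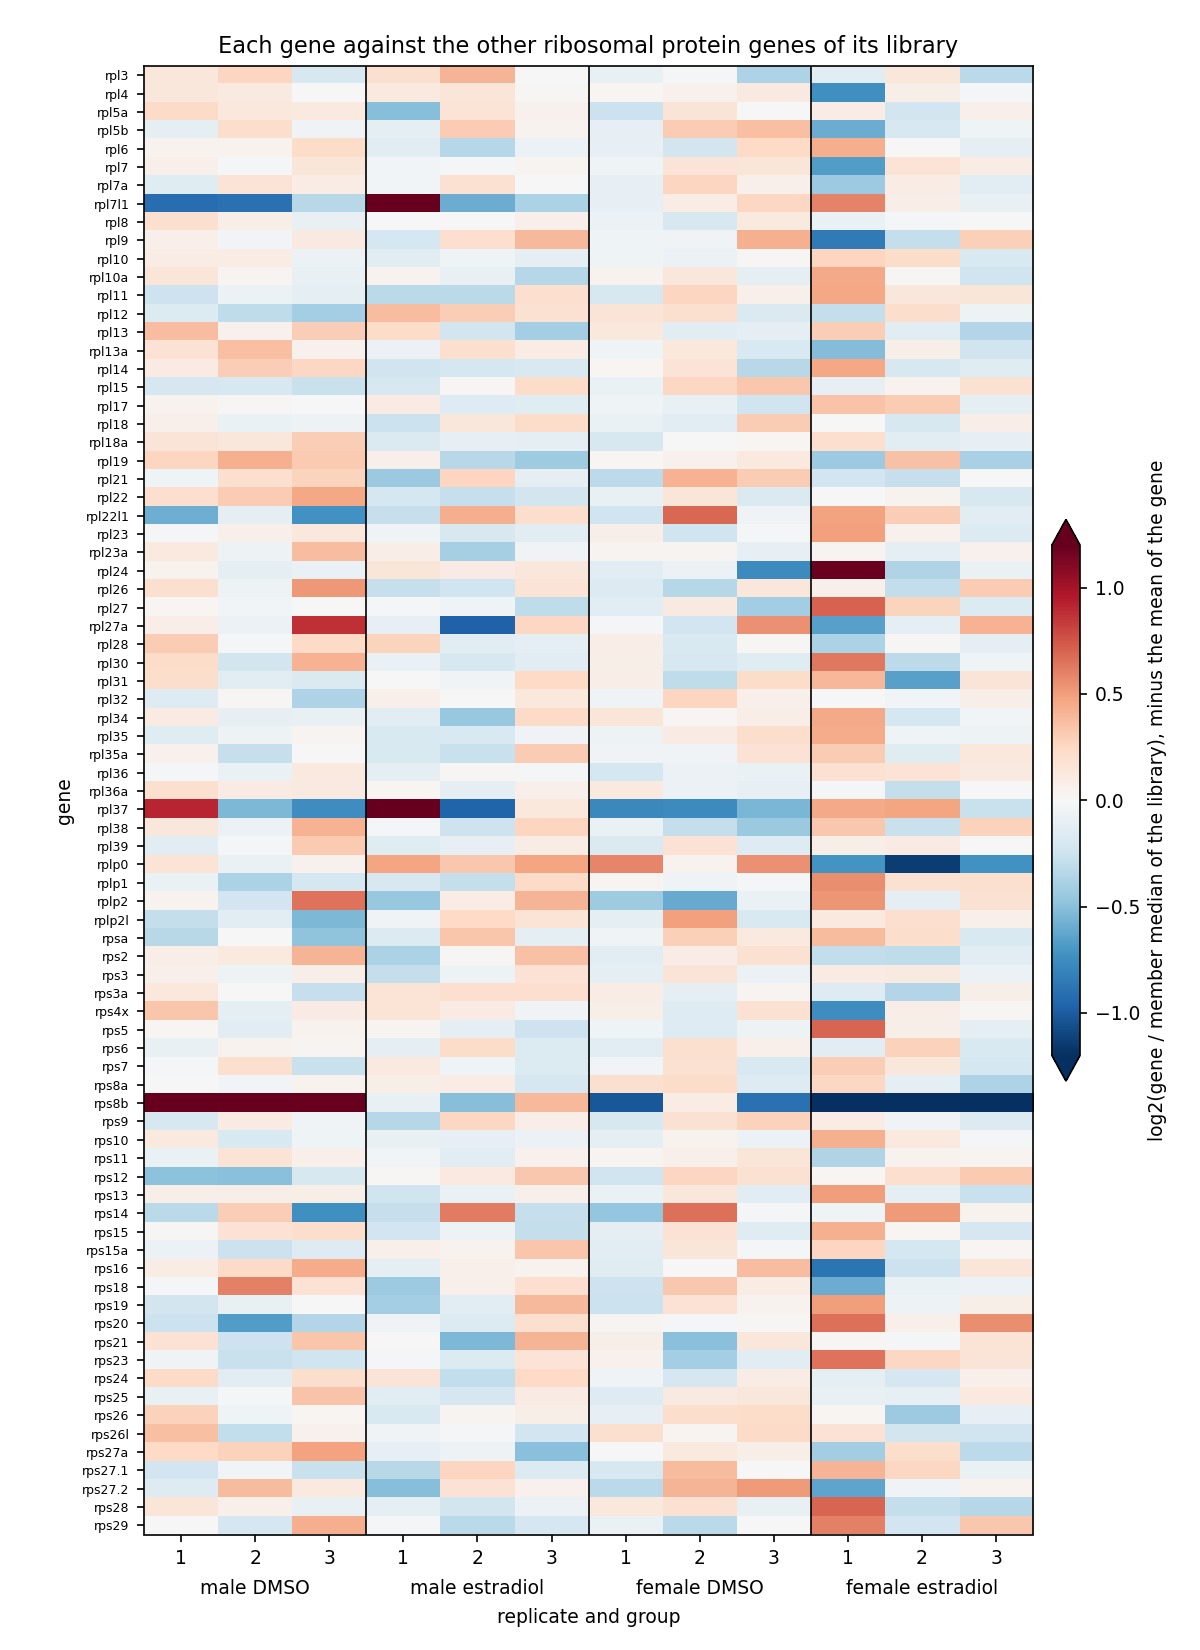
Rows are 80 of the 81 genes (grouped as large subunit, stalk and small subunit) and columns are libraries, with colour for log2 of its FPKM over the median of the 81 in that library minus the mean of the gene; colours saturate at the ends of the scale. Most cells are pale, female estradiol replicate 1 has the most coloured cells, and rplp0 is blue in all 3 female estradiol libraries (0.051, -0.36 and 0.042 before its mean is taken off).

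rplp0, which is often used as a reference gene in quantitative PCR, stood apart from its family in 1 group, the estradiol-treated females. In log2 units over the library median it stood at 0.94, 0.69 and 0.83 in male DMSO, 1.24, 1.095 and 1.24 in male estradiol, 1.36, 0.81 and 1.32 in female DMSO and 0.051, -0.36 and 0.042 in female estradiol. The 9 libraries of the first 3 groups did not overlap with the 3 of female estradiol, and the lowest of these 3 was replicate 2, the library of its group with the fewest oocyte transcripts. The part of oocyte transcripts in the level of rplp0 was not tested. It measured 4293, 3799.8 and 4044 FPKM in the male DMSO libraries, 1900.1, 6479.8 and 5845 in male estradiol, 13179.8, 7261 and 11054 in female DMSO and 7665, 1979 and 2639 in female estradiol. Its level in female estradiol replicates 2 and 3 lay below every male DMSO library, and in replicate 1 it lay between the female DMSO libraries, although 70 of the 81 genes had their highest value in that replicate.

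On the table as deposited the change of rplp0 by estradiol in females was -1.57 (SE 0.62, adjusted p = 0.189, limma) and did not pass. With the libraries scaled so that the median of the 81 genes was equal in each, rplp0 fell by estradiol in females (log2 change -1.25, SE 0.21, adjusted p = 0.0116), was lower in females than in males under estradiol (log2 change -1.28, SE 0.21, adjusted p = 0.0245) and passed for the interaction (log2 change -1.63, SE 0.29, adjusted p = 0.041, limma). With quantile normalization it also fell in females (log2 change -1.40, adjusted p = 0.00996) and passed for the interaction (-1.82, adjusted p = 0.0256). Over all alternative settings its adjusted p in females ran from 0.00504 to 0.654. Under the scaling to the family 0.642%, 0.163% and 0.207% of all genes passed, and rplp0 was the only one of the 81 in each of these comparisons. In males the scaled change was 0.37 (adjusted p = 0.286). The scaling reads a gene relative to the other ribosomal protein genes, and it moves the median of all genes to 0.52 for estradiol in males, 0.18 in females, -0.62 for the sexes under DMSO, -1.04 under estradiol and -0.37 for the interaction. rps8b, again relative to the family, fell by estradiol in males (-1.98, adjusted p = 0.0369) and was lower in females than in males under DMSO (-2.32, adjusted p = 0.021), where 2.1% and 1.44% of all genes passed.

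On the ribosome rplp0 anchors dimers of rplp1 and rplp2, and these genes were read beside it. Relative to the library median rplp1 stood at 1.75, 1.68 and 1.69 in female DMSO and 2.28, 1.90 and 1.91 in female estradiol, and rplp2 at -1.24, -1.42 and -0.89 in female DMSO and -0.28, -0.93 and -0.63 in female estradiol. Every female estradiol library was above every female DMSO library for both genes, except for rplp2 in estradiol replicate 2. With libraries scaled to the family the log2 change was 0.32 for rplp1 (SE 0.18, adjusted p = 0.765) and 0.57 for rplp2 (SE 0.31, adjusted p = 0.739, limma), neither past the threshold. rplp2l stood at 0.00, 0.60 and -0.074 in female DMSO and 0.22, 0.31 and 0.17 in female estradiol, with overlap. The neighbouring gene of rplp2 in the RefSeq gene order is rps26l, the only pair of neighbours among the 81.

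**Figure D4:**
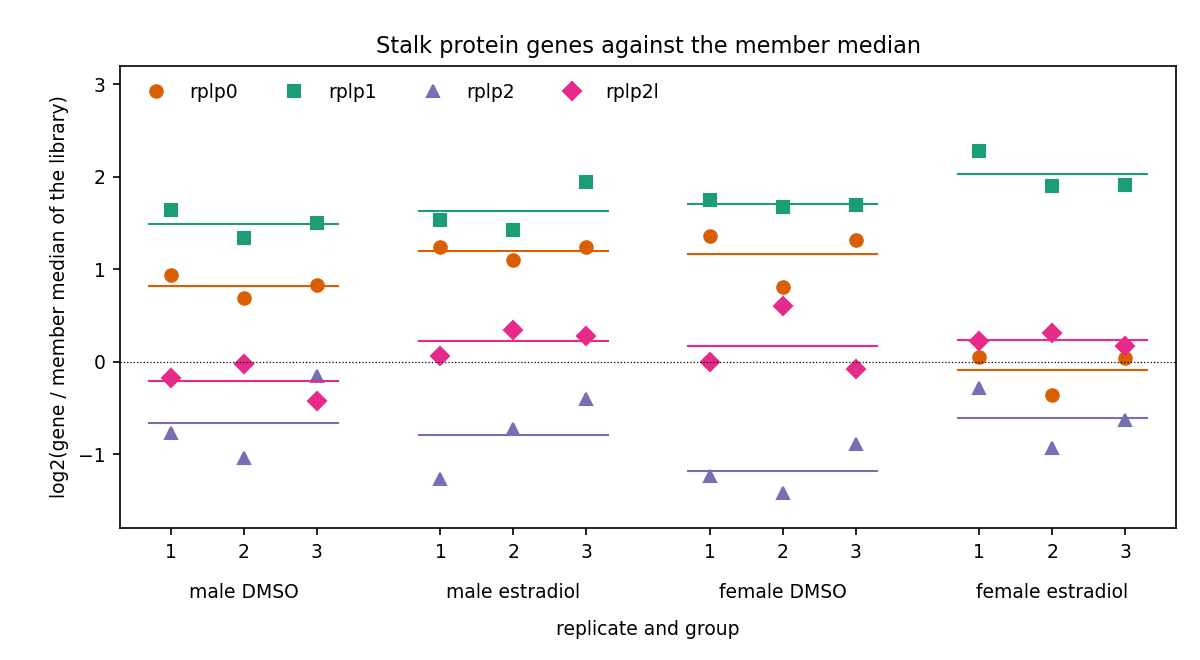
The 4 stalk genes in each library, as log2 of FPKM over the median of the 81 ribosomal protein genes in that library; short lines are group means and the dotted line marks the median. rplp0 (orange circles) lies at 0.69 or more in 9 libraries and at 0.051 or less in the 3 female estradiol libraries.

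Several ribosomal proteins have roles outside peptide synthesis. rpl5a, rpl5b and rpl11 encode the proteins that, bound to the 5S ribosomal RNA, can hold Mdm2 and so stabilise p53 in mammals. rpl11 measured 1505, 1794 and 1695 FPKM in the male DMSO libraries, 512, 1939 and 2270.4 in male estradiol, 3586, 3957 and 3696 in female DMSO and 8141, 2234 and 2261 in female estradiol. Its DMSO groups did not overlap, and its log2 change between the sexes under DMSO was 1.17 (adjusted p = 0.53 over all libraries and 0.0115 over DMSO libraries, limma). rps6, the small-subunit protein phosphorylated by the kinases downstream of mTOR, measured 1893, 2171 and 2089 FPKM in the male DMSO libraries, 665, 3161 and 1976 in male estradiol, 4193, 4243 and 4139 in female DMSO and 6026, 2757 and 2020.1 in female estradiol. Female DMSO libraries were again above all male DMSO libraries and the estradiol groups overlapped with each other. The log2 change between the sexes under DMSO was 1.03 (adjusted p = 0.553 and 0.0129 in the same fits), and its transcript says nothing of its phosphorylation.

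For 7 pairs of paralogs present in the table, the ratio of the 2 genes was taken in each library. The ratios printed here are of FPKM and do not depend on the scaling between libraries. Estradiol was compared with DMSO by an exact two-sided permutation test of the log2 ratio of FPKM + 1 (400 arrangements, Benjamini-Hochberg over 7 pairs). Labels were exchanged only within a sex, and both sexes entered the same test. The log2 differences are therefore over both sexes and not values of each sex. For a gene as low as rps8b the added 1 makes the tested ratio smaller in size and dependent on the scaling. In female estradiol replicate 2 the tested log2 ratio of rps8b over rps8a was -10.29, where the FPKM ratio was 0.000281. None passed after adjustment. The lowest unadjusted p was that of rps8b over rps8a (log2 difference -0.99, exact p = 0.03, adjusted p = 0.128), with ratios of 0.00598, 0.00515 and 0.00418 in male DMSO, 0.000903, 0.000664 and 0.00152 in male estradiol, 0.000433, 0.000923 and 0.000601 in female DMSO and 0.000286, 0.000281 and 0.000475 in female estradiol. Male DMSO stood above all other libraries. In the same test of females against males, with labels exchanged only within a treatment, the pair had a log2 difference of -1.96 (exact p = 0.01, adjusted p = 0.07). That test was added after seeing the data.

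The ratio of rpl22l1 to rpl22, RNA-binding paralogs that are known to regulate each other in mammals, was 0.268, 0.348 and 0.203 in male DMSO, 0.441, 0.76 and 0.625 in male estradiol, 0.416, 0.672 and 0.507 in female DMSO and 0.649, 0.551 and 0.483 in female estradiol. All 3 male DMSO libraries were lower than the other 9, which overlapped among themselves. The test of estradiol within sex did not pass (log2 difference 0.63, exact p = 0.05, adjusted p = 0.128). The ratio of rps27.2 to rps27.1 ran from 0.277 in female estradiol replicate 1 to 0.814 in female DMSO replicate 3 (log2 difference -0.42, exact p = 0.055, adjusted p = 0.128). For rpl7l1 over rpl7 the highest ratios were 0.0819 in male estradiol replicate 1 and 0.0397 in female estradiol replicate 1 (log2 difference 0.77, exact p = 0.14, adjusted p = 0.245). The differences nearest 0 were those of rpl5a over rpl5b, with ratios from 1.04 to 2.2 (log2 difference 0.079, exact p = 0.71, adjusted p = 0.98), of rps26l over rps26, from 1.51 to 2.29 (log2 difference 0.0021, exact p = 0.98, adjusted p = 0.98) and of rplp2l over rplp2, from 0.829 to 4.05 (log2 difference 0.034, exact p = 0.88, adjusted p = 0.98).

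**Figure D5:**
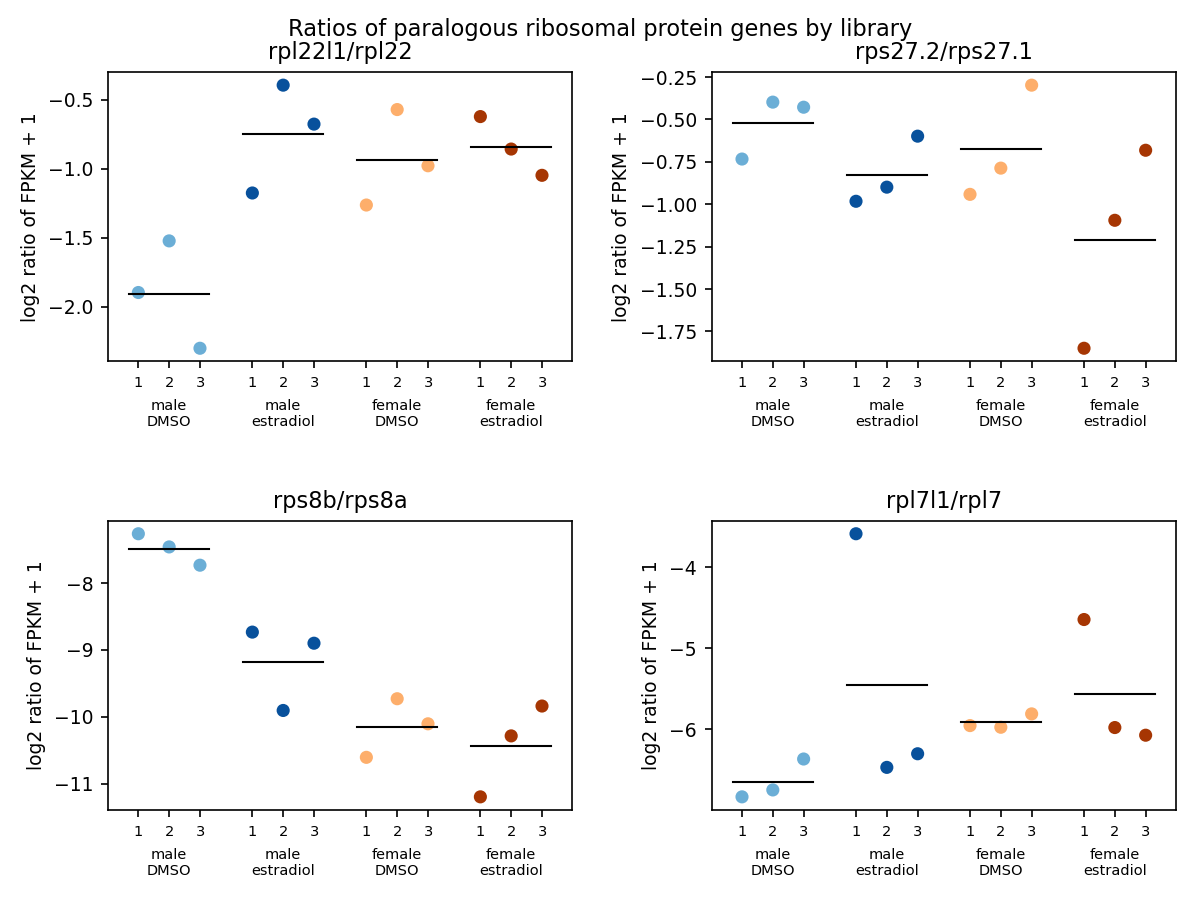
Log2 ratio of FPKM + 1 for 4 pairs of paralogous ribosomal protein genes in each library; points are libraries, coloured by group, and lines are group means. For rpl22l1/rpl22 the 3 male DMSO points lie at -1.52 or less and the other 9 at -1.26 or more.

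Other transcripts of the translation machinery were read beside the family. Of 22 tested transcripts known as TOP mRNAs that are not ribosomal protein genes by the rule, 17 had every female DMSO library above every male DMSO library, against 18.6% of all genes, and their median log2 change was 0.81. With all libraries limma called none of them in any of the 5 comparisons. Of all genes 3.79% passed for estradiol in males and 2.73% in females. It was 0.555% between the sexes under DMSO, 0.109% under estradiol and 0.261% for the interaction. An unadjusted p under 0.05 was held by 1 for estradiol in males, 2 in females and 6 between the sexes under DMSO. It was held by 0 between the sexes under estradiol and 0 for the interaction. Without replicate 1 of both estradiol groups, a choice made after seeing the values, 9 rose between the sexes under DMSO (3.59% of all genes). In that fit 7 fell by estradiol in females (5.54%) and 1 rose in males (1.28%). Examples from this list, not picked by smallest p, follow. The elongation factor eef1a1l1 measured 5784, 5523 and 5001 FPKM in male DMSO and 11902, 7918 and 13176 in female DMSO. gnb2l1 (RACK1, a scaffold on the small subunit) measured 1917, 2017 and 2086 FPKM in male DMSO and 4624, 3736 and 4665 in female DMSO. faub, which encodes the precursor of rps30, measured 111, 59.5 and 43.9 FPKM in male DMSO and 55.4, 70.3 and 20.1 in female DMSO. Both eef1a1l1 and gnb2l1 were in the band of the family and higher in females without overlap, while faub was low and overlapped between the sexes.

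The mitochondrial ribosomal proteins, which form a separate ribosome in the mitochondrion, were read for contrast. Of 59 tested, 22 had no overlap with females higher (37.3%, against 18.6% of all genes), and the median log2 change between the sexes under DMSO was 0.34, beside 0.048 over all genes and 0.97 for the cytosolic genes. limma called none of them in any comparison, and 2 for estradiol in males, 2 for estradiol in females, 0 between the sexes under DMSO, 3 between the sexes under estradiol and 0 for the interaction had an unadjusted p under 0.05. The shares of all genes called with all libraries are those given for the TOP mRNAs. Without replicate 1 of both estradiol groups, 4 of the 59 fell by estradiol in females (5.54% of all genes). With all libraries the median change of the mitochondrial ribosomal protein genes by estradiol was -0.17 in males and -0.078 in females. Over all genes it was 0.21 and -0.079. Without replicate 1 of both estradiol groups, a choice made after seeing the values, it was -0.32 and -0.67, beside 0.15 and -0.19 over all genes. Without the 4 oocyte-rich libraries, which leaves 1 library in each estradiol group, it was -0.58 and -0.52, beside 0.16 and -0.32.

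Of 78 tested genes for ribosome biogenesis, which process ribosomal RNA and assemble subunits in the nucleolus, 73 had every female DMSO library above every male DMSO library, against 18.6% of all genes, with a median log2 change of 1.29 (0.048 over all genes). In this comparison, where 0.555% of all genes changed, 1 of the 78 rose, wdr43, a factor of small-subunit processing (log2 change 1.97, SE 0.35, adjusted p = 0.0297, limma), from 13.6, 11.7 and 11.1 FPKM in male DMSO to 52.9, 43.0 and 56.0 in female DMSO. Without replicate 1 of both estradiol groups, a choice made after seeing the values, 44 of the 78 rose between the sexes under DMSO (3.59% of all genes). With all libraries estradiol gave a median of 0.54 in males, with 24 of 78 higher and 2 lower without overlap. There the median over all genes was 0.21 and 18.5% were higher and 11.4% lower. Without the 4 oocyte-rich estradiol libraries the median in males was 0.25, beside 0.16 over all genes, and without replicate 1 of both estradiol groups it was 0.18, beside 0.15. In females the median was -0.52 with all libraries, with none higher and 22 lower, where the median over all genes was -0.079 and 9.98% were higher and 18.8% lower. Without the same libraries it was -0.79 and -0.91, beside -0.32 and -0.19 over all genes. Without replicate 1 of both estradiol groups 15 of the 78 fell in females (5.54% of all genes). fbl, the methyltransferase of nucleolar RNA, fell in females (log2 change -1.53, SE 0.37, adjusted p = 0.0483, limma), where 2.73% of all genes passed. It measured 20.8, 22.8 and 25.1 FPKM in the male DMSO libraries, 29.7, 25.4 and 17.4 in male estradiol, 79.0, 85.5 and 76.5 in female DMSO and 43.8, 20.97 and 21.4 in female estradiol. Female DMSO stood apart from all other groups, and of the female estradiol libraries replicate 1 was the nearest to it.

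The title of the study names mTOR, and 16 genes of mTOR signalling and of the control of ribosomal protein mRNA were tested. Their median log2 change between the sexes under DMSO was -0.037, beside 0.048 over all genes, and 5 (31.2%) had no overlap with females higher, against 18.6% of all genes. There, where 0.555% of all genes changed, 2 rose: eif4ebp3, a repressor of cap-dependent translation that mTOR inactivates (log2 change 4.38, SE 0.56, adjusted p = 0.00211), and mych, a Myc family transcription factor of fish (log2 change 3.60, SE 0.50, adjusted p = 0.00388, limma). eif4ebp3 measured 95.2, 79.9 and 19.6 FPKM in the male DMSO libraries, 22.1, 15.4 and 34.2 in male estradiol, 1493, 791 and 1219.6 in female DMSO and 139, 109.6 and 134 in female estradiol. It was highest in the female DMSO libraries, and in females it fell by estradiol (log2 change -3.14, SE 0.56, adjusted p = 0.0148, limma), where 2.73% of all genes passed. mych measured 2.51, 3.94 and 1.31 FPKM in the male DMSO libraries, 5.64, 10.1 and 5.51 in male estradiol, 59.9, 24.4 and 45.6 in female DMSO and 51.9, 37.4 and 16.8 in female estradiol. It was high in females under both treatments. The transcript of the kinase itself, mtor, measured 1.92 to 4.5 FPKM over the 12 libraries.

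Of 9 tested genes of the p53 response, which free ribosomal proteins can trigger, 1 passed in 1 of the 5 comparisons. sesn2, a stress-induced inhibitor of mTOR signalling, rose by estradiol in males (log2 change 2.19, SE 0.54, adjusted p = 0.0453, limma), where 3.79% of all genes passed. Without replicate 1 of both estradiol groups, a choice made after seeing the values, none of the 9 passed for estradiol in males. There 1.28% of all genes rose and 2.72% fell. In that fit 1 of the 9 rose and 1 fell between the sexes under DMSO (3.59% and 2.28% of all genes). sesn2 measured 2.02, 1.28 and 1.43 FPKM in the male DMSO libraries, 14.3, 19.3 and 4.09 in male estradiol, 1.84, 3.51 and 4.9 in female DMSO and 9.63, 3.34 and 3.48 in female estradiol. The male estradiol libraries lay above the male DMSO libraries, and the female groups overlapped.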

How the data were processed

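RNA-seq of zebrafish liver was deposited as 1 table of gene symbols by 12 libraries. The values are taken as FPKM computed by the authors, since the submitters' processing notes name cutadapt, TopHat2 2.0.11, Cufflinks 2.2.1 and the genome build danRer7, and the deposited values are not whole numbers. Any further scaling is not given in the sources used here. Library titles gave group and replicate number.

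Genes that reached 1 FPKM in 3 or more libraries were tested on log2(FPKM + 1) with limma 3.58.1 (lmFit, contrasts.fit and eBayes with trend, R 4.3.3), using 4 group means and Benjamini-Hochberg adjustment over all 9190 genes at 0.05. The fit was tested on simulated data with independent errors and the same spread in every group. That test does not cover shifts of whole libraries or the wider estradiol groups. The genes described, the lists, the oocyte-rich libraries and the tests were chosen with earlier results of these data known. Named are genes past the threshold, the 3 highest and 3 lowest changes per comparison, the 5 highest and 5 lowest means, paralog pairs, 12 genes of known role, and up to 4 per related list. Those of the related lists were taken by smallest p, except eef1a1l1, gnb2l1, faub and mtor. Other named genes (rpl36, rpl36a, rpl8 and rpl26, and the genes named by overlap or by an alternative setting) were chosen after their values were seen. Python 3.11.15 and pandas 2.3.3 computed shares, ratios and exact tests. No sequence is shown, and a few genes are not reported here by name. Alternatives changed scaling, filter, pseudocount, libraries and the replicate block.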

Additional observations from a re-analysis of the deposited data

Results flagged for a closer look

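rplp0, the scaffold of the ribosomal stalk, was marked because its change by estradiol differed between the sexes in a test of that difference. With libraries scaled to the median of the ribosomal protein genes, the change in females minus that in males was -1.63 on the log2 scale (SE 0.29, adjusted p = 0.041, limma), with -1.25 in females and 0.37 in males. All 3 female estradiol libraries lay below the other 9 relative to the family. On the values as deposited the same difference was -1.62 (SE 0.87, adjusted p = 0.543).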

How the results depend on the processing

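Of the summary values 109 of 143 results under the settings that changed more than 1 library or the processing stayed within the limits set for a change. A median counted as changed only if it moved by at least 0.68 on the log2 scale, the spread between replicates. Smaller moves count as unchanged even where the sign turned. Without replicate 1 of both estradiol groups this held for the medians by estradiol, 0.20 in males and -0.87 in females. The exceptions to these limits follow, and the cause was not tested. With only the compared groups in the fit, 0 genes passed for estradiol in males and 65 for the sexes under DMSO. With quantile normalization 2 passed in males, 1 in females, 1 for the sexes under DMSO and 1 for the interaction, and the median between the sexes under estradiol was 0.36. The shares of all genes that passed with quantile normalization were not counted. With libraries scaled to the family 1 gene passed in each of the comparisons in females, of the sexes under DMSO, of the sexes under estradiol and of the interaction, and the medians between the sexes were -0.022 under DMSO and 0.072 under estradiol. Without the 4 oocyte-rich libraries 3 passed in males, 15 in females, 68 for the sexes under DMSO and 21 for the interaction, with medians of 0.34 in males, -0.27 between the sexes under estradiol and -1.17 for the interaction. Without replicate 1 of both estradiol groups, chosen after seeing the data, 2, 48, 60 and 5 passed in the same comparisons, with medians of -0.11 between the sexes under estradiol and -1.09 for the interaction. The fit without the 4 oocyte-rich libraries leaves 1 library in each estradiol group and takes its error from the DMSO libraries. The female DMSO share was 47.8% with the 10 most abundant genes, 4 of them ribosomal protein genes, left out of both the family and the sum. It was 47.5% without genes listed at 0 in a group.

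Single genes changed sign without passing. Scaled to the family these were rpl37 (-0.53) and rplp2 (-0.52) between the sexes under DMSO and rpl9 (-0.41) under estradiol. Without the intestine-rich libraries rplp2 was -0.0027 for estradiol in females. Without the oocyte-rich libraries it was rpl37 (-0.40) in males, rplp2 (-0.58) and rpl24 (-0.87) in females, rpl9 (-0.74), rps29 (-0.16) and rps20 (-0.027) between the sexes under estradiol, and rps29 (-0.94) and rplp2 (-0.92) for the interaction. Without replicate 1 of both estradiol groups it was rpl37 (-0.046) in males, rplp2 (-0.43), rpl24 (-0.72) and rpl37 (-0.027) in females, rpl9 (-0.40) between the sexes under estradiol, and rps29 (-0.57) and rplp2 (-0.78) for the interaction.

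Leaving out 1 library at a time gave 0 to 1 calls in males and 0 to 1 between the sexes under DMSO (rpl7l1, without female estradiol replicate 1). The medians ran from -0.77 to 0.20 in males, -0.87 to -0.019 in females, 0.44 to 1.40 between the sexes under estradiol and -0.52 to 0.42 for the interaction, each end set by an estradiol library. Genes that changed sign ran from -0.26 to 1.05 (rpl22l1) and -0.046 to 0.80 (rpl37) in males, -0.43 to 0.67 (rplp2), -0.72 to 0.82 (rpl24) and -0.027 to 1.04 (rpl37) in females, -0.86 to 0.11 (rplp0) and -0.17 to 0.996 (rpl9) between the sexes under estradiol, and -0.060 to 1.13 (rps29) and -0.10 to 1.14 (rplp2) for the interaction. rps8b in males ran from -2.31 to -1.72. The paralog differences ran from -0.028 to 0.15 (rpl5a/rpl5b), 0.53 to 0.73 (rpl22l1/rpl22), 0.30 to 1.02 (rpl7l1/rpl7), -0.55 to -0.26 (rps27.2/rps27.1), -1.15 to -0.81 (rps8b/rps8a), -0.15 to 0.20 (rplp2l/rplp2) and -0.052 to 0.066 (rps26l/rps26). The unadjusted exact p of rps8b/rps8a was between 0.05 and 0.06 in 5 of the 12 leave-outs. For rpl22l1/rpl22 the same exact p was 0.015 without female DMSO replicate 2 and 0.035 without female estradiol replicate 3. For rps27.2/rps27.1 it was 0.045 without male DMSO replicate 1 and 0.04 without male estradiol replicate 3. Without female estradiol replicate 3 it was 0.015 for rps27.2/rps27.1 and 0.045 for rpl7l1/rpl7.

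The labels do not say that replicate numbers pair the libraries. The correlation of deviations between same-numbered libraries was from -0.43 to 0.57, with 0.49 and 0.57 between male and female estradiol replicates 1 and 2, so not every pair was over 0.1. In 11 of 36 comparisons of a library with another group it correlated best with its own number, and no library did so with all groups. With the replicate block 1 gene passed in males and 0 in each of the other 4 comparisons, as without it, and the medians were the same -0.41, -0.31, 0.97, 1.07 and 0.069. With the block and libraries scaled to the family, an alternative chosen after seeing the data, 0 genes passed in males (rps8b -1.98, adjusted p = 0.0801) and 0 between the sexes under DMSO, and rplp0 again passed in females (-1.25, adjusted p = 0.00504), between the sexes under estradiol (-1.28, adjusted p = 0.0120) and for the interaction (-1.63, adjusted p = 0.0109). Medians between the sexes were -0.022 and 0.072, and rpl37 (-0.53), rplp2 (-0.52) and rpl9 (-0.41) changed sign as without the block. Leaving out genes whose names denote no subunit was not run, because every symbol was assigned to a subunit name. This includes rpl7l1, which was assigned to rpl7. Depth is unknown, and 3 libraries per group limit every test.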

Other observations

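Relative to the library median of the family, 15 of the 81 ribosomal protein genes had their highest value, within every group, in the library with the same replicate number, 3 of them in replicate 1, 6 in replicate 2 and 6 in replicate 3. rpl27a and rps14 are given as examples. rpl27a stood at 0.36, 0.21 and 1.16 in male DMSO, 0.18, -0.69 and 0.53 in male estradiol, 0.26, 0.052 and 0.83 in female DMSO and -0.37, 0.17 and 0.70 in female estradiol. The highest was that of replicate 3 in all 4 groups. rps14 stood at -0.79, -0.17 and -1.203 in male DMSO, -0.74, 0.16 and -0.74 in male estradiol, -0.93, 0.19 and -0.48 in female DMSO and -0.52, 0.048 and -0.42 in female estradiol, and the highest was that of replicate 2 in all 4 groups. These genes were singled out after their values were seen, and the pattern was not tested. The same count was not made over all genes, so it is not known whether the pattern is particular to this family. rpl24 had its widest departure, 1.40, in female estradiol replicate 1.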
